A study of Drosophila melanogaster with 22 samples.

Results

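The mitochondrial ribosomal protein genes of Drosophila melanogaster were followed through the first 8 days of adult life in the anterior ovariole. They were taken as every annotated gene whose symbol is mRpL or mRpS followed by a number, which gave 73 of the 17478 genes in the deposited tables: 47 with large-subunit names (mRpL) and 26 with small-subunit names (mRpS). The rule by symbol uses no expression value, but this set of genes was chosen with earlier results of these data known. Of the 73, 72 passed the filter on low counts and were tested, among 8024 tested genes in all. The exception was mRpL53.

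RNA was sequenced as polyA-selected libraries from virgin w1118 females, which carry a white mutation common in laboratory stocks, raised and aged at 25 °C under constant light. The 22 libraries cover days 5 to 8 after eclosion (3 libraries a day, 12 in all) and days 1 to 4 (2, 3, 3 and 2 libraries, 10 in all). All carry the same genotype, and each was made from 200 ng of total RNA of 30 to 50 ovarioles. In days 5 to 8 the dissection kept egg chambers as far as stage 7, and in days 1 to 4 as far as stage 8, so age and dissection limit cannot be told apart between these age groups.

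The mitochondrial ribosome translates the few mRNAs that the mitochondrial genome encodes, all of them for core subunits of the respiratory chain and ATP synthase. Its RNA comes from the mitochondrial genome, while its proteins are encoded in the nucleus, made in the cytosol and imported. The small subunit decodes the mRNA and the large subunit forms peptide bonds. Many of the proteins have bacterial counterparts, and others were added to the mitochondrial particle during evolution. Mitochondria multiply in the germline of the fly ovary and are passed to the egg.

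Among the libraries of days 2 to 4, 3 held almost no ERCC spike-in RNA, the synthetic control transcripts. Day 2 replicate 1, day 3 replicate 2 and day 4 replicate 2 had 31, 19 and 52 spike-in counts and are called spike-poor here. The other 19 libraries had 25577 to 910875 such counts and are called spike-in libraries. Gene counts were 3648865 to 9781870 in the 3 spike-poor libraries, 1146915 to 2573634 in the 7 spike-in libraries of days 1 to 4, and 2975582 to 4634327 in the older 12. The spike-poor libraries also differed in content from the other libraries of days 1 to 4. mRNAs of the mitochondrial genome took 0.462 to 0.866% of their gene counts, against 0.181 to 0.323% in the 7 spike-in libraries of days 1 to 4. Small nucleolar and spliceosomal RNAs took 0.0418 to 0.0531% in the spike-poor and 0.176 to 0.406% in those 7 libraries. In the older 12 libraries the mRNAs of the mitochondrial genome took 0.256 to 0.726%, which overlaps the spike-poor range. Small nucleolar and spliceosomal RNAs took 0.0335 to 0.0997% there, so on this measure the 7 young spike-in libraries stood apart from all others. All 8 germline and all 6 follicle cell marker genes were detected in every library.

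The 73 genes lie on all large chromosome arms, 12 on 2L, 12 on 2R, 17 on 3L, 21 on 3R and 11 on X in the deposited FlyBase annotation (release 6). They are short and simply built. Their merged exons have a median length of 783 bp (327 to 2078 bp), against 2203 bp over all tested genes, the median number of exons is 2, and 55 have a single annotated transcript. Of the 72 tested, 51 (70.8%) have the start of an oppositely oriented gene within 500 bp upstream of their own, against 2952 of 7983 tested genes with a chromosome position (37.0%). The closest such neighbour is 20 bp from mRpL18. No pair of the 73 share such a start region with each other.

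The genes were expressed at a similar and moderately high level. Levels are given as CPM, counts scaled to library size, divided by exon length in kb (CPM per kb), averaged over the 22 libraries. The median was 42.0 CPM per kb over the 72 tested members and 16.3 CPM per kb over all 8024 tested genes, and 71 of the 72 lay above that median of all genes. The middle of the distribution was narrow, with quartiles of 32.8 and 53.8 CPM per kb over all 73 members, mRpL53 included. From the highest to the lowest tested member the level differed 9.41-fold. On the log2 scale the SD of the level between genes was 0.56 among tested members and 2.35 among all tested genes. The large-subunit median was 41.6 CPM per kb (n = 47) and the small-subunit median 41.5 CPM per kb (n = 26). Proteins that carry numbers of the bacterial ribosome (42 genes) had a median of 37.9 CPM per kb, and those with higher numbers (31 genes), many but not all of which lack a bacterial counterpart, 45.7 CPM per kb.

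**Figure D1:**
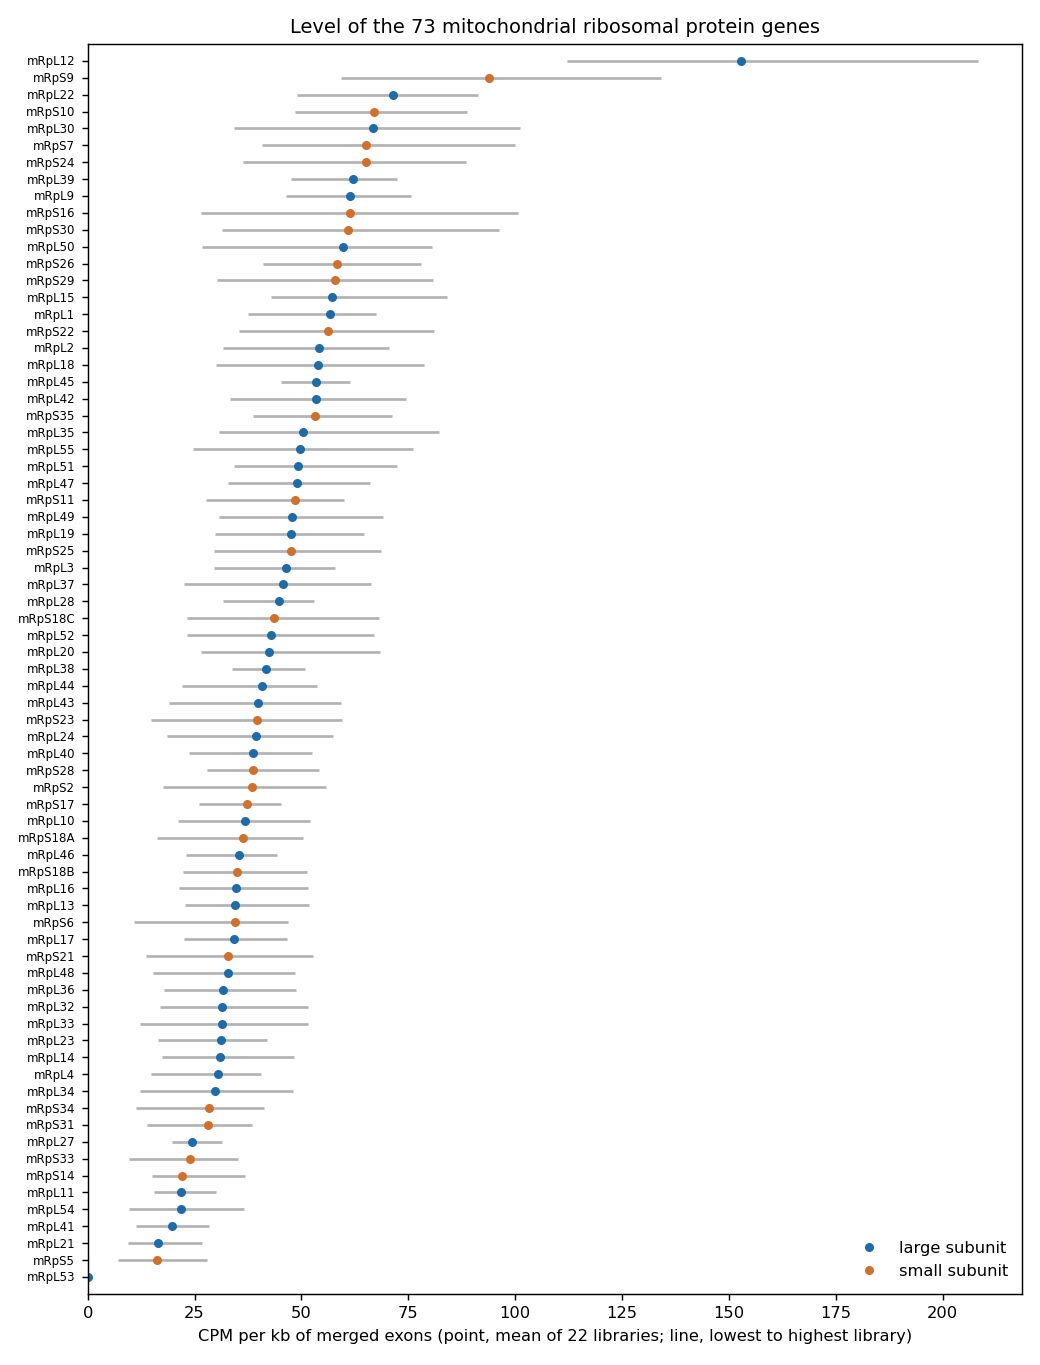
Level of each of the 73 genes in CPM per kb of merged exons, ordered from highest to lowest. Points are means of 22 libraries, coloured by subunit name, and lines run from the lowest to the highest library. Most means lie between 20 and 70 CPM per kb. mRpL12 stands highest at 153 CPM per kb, and mRpL53 is at 0.

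mRpL12 (FBgn0011787; 3L, 8956791 to 8957584) led with 153 ± 27.3 CPM per kb (SD, n = 22). Its protein is the counterpart of bacterial L7/L12, the flexible stalk that recruits translation factors. mRpS9 followed with 93.9 ± 21.2 CPM per kb, and then mRpL22 with 71.4 ± 10.3, mRpS10 with 67.0 ± 12.0 and mRpL30 with 66.8 ± 15.9 CPM per kb. The last 3 neighbours in this order differ by less than their SD over libraries. The lower end was made by mRpL54 with 21.9 ± 6.76 CPM per kb, mRpL41 with 19.8 ± 4.82, mRpL21 with 16.5 ± 4.57 and mRpS5 with 16.2 ± 5.24 CPM per kb, the last again closer together than their SD. mRpS5 is the counterpart of a bacterial protein that shapes the decoding centre. With the longest annotated transcript in place of merged exons, the ranks of the 73 genes correlated at 0.998 (Spearman) with those above, and the largest change was 10 ranks, for mRpL23.

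mRpL53 (FBgn0050481; 2R, 13954195 to 13955664) had 0 counts in all 22 libraries. A count of 0 allows up to 3 counts, which is 0.307 to 2.62 CPM by library, for counting error only. All 829 bp of its exons lie within exons of CG33155 on the same strand. The labels and headers do not state how reads over shared exons were assigned, so this 0 is a statement about the deposited counts and not about the transcript. Among the tested members, 2 share exons with another gene of the same strand: mRpL13 shares 236 bp with CG10602, and mRpS14 shares 30 bp with CG32533. Exons of 42 members overlap those of a gene on the opposite strand, and how strand was used in counting is not stated either.

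The S18 family has 3 separate loci, whose products sit at different places of the particle in mammals. mRpS18C was at 43.5 ± 13.4 CPM per kb, mRpS18A at 36.2 ± 8.81 and mRpS18B at 34.9 ± 7.62 CPM per kb (SD, n = 22 each). All 3 were expressed together, within their spread over libraries. In mammals the proteins named S18A and S30 belong to the large subunit in spite of their names, and the split by subunit used here follows the names.

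Some members were very even over libraries and others were not. The SD of log2 CPM over the 22 libraries had a median of 0.32 among tested members and 0.34 among all tested genes. The most even were mRpL45 (0.14), mRpL38 (0.16), mRpL39 (0.17) and mRpS17 (0.18). mRpL45 is known in mammals as the protein that docks the ribosome to the inner membrane. It ranged from 60.7 to 77.8 CPM with a median of 70.3 CPM in days 5 to 8, and from 57.4 to 77.9 CPM with a median of 63.8 CPM in days 1 to 4. The least even were mRpL33 (0.50), mRpS6 (0.50), mRpL54 (0.46) and mRpS5 (0.45). mRpL33 is also among the least abundant members in CPM.

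Most pairs of members were positively correlated over libraries. Over the 22 libraries the median Pearson correlation of log2 CPM between pairs of tested members was 0.32, and 90.6% of the pairs were positive, against a median of 0.00 and 49.9% positive over pairs of all tested genes. Within days 5 to 8 (12 libraries) the members' median was 0.16, with 69.1% of pairs positive. Within days 1 to 4 (10 libraries) it was 0.44, with 90.4% positive. Over the 19 spike-in libraries it was 0.26, with 82.8% positive. These libraries differ in depth and, in days 1 to 4, in spike-in content, and the points of a correlation share both. Differences between the kinds of library also followed gene length, as given below. The members are short, and they were not set against pairs of genes of like length. The values are descriptions without a test.

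Summed over the 73 genes, the mRNA for the mitochondrial ribosome made up 2315 to 3462 CPM of a library. The sum was 2315 and 2367 CPM in the libraries of day 1, 3223, 2868 and 2748 CPM on day 2, and 2358, 3307 and 2985 CPM on day 3. It was 2349 and 3462 CPM in replicates 1 and 2 of day 4. By day it averaged 2341 ± 37.2, 2946 ± 247, 2883 ± 482 and 2906 ± 787 CPM on days 1 to 4 (SD, n = 2, 3, 3 and 2). It averaged 3072 ± 254, 2900 ± 188, 2830 ± 215 and 2960 ± 300 CPM on days 5 to 8 (SD, n = 3 each). Both day 1 libraries were low, replicate 1 of days 3 and 4 lay close to them, and days 5 to 8 overlapped one another throughout. The spread on days 3 and 4 lay between libraries of the same day. In each of days 2, 3 and 4 the spike-poor library had the highest sum of its day. The large and the small subunit showed the same order of the 3 group means. The large-subunit sum was 1662 to 2067 CPM in days 5 to 8, 2005 to 2098 CPM in spike-poor libraries and 1429 to 1817 CPM in the 7 spike-in libraries of days 1 to 4. The small-subunit sum was 990 to 1332, 1219 to 1364 and 805 to 1168 CPM in the same groups. In bulk RNA, fewer cells of a type and less of an mRNA per cell cannot be told apart.

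**Figure D2:**
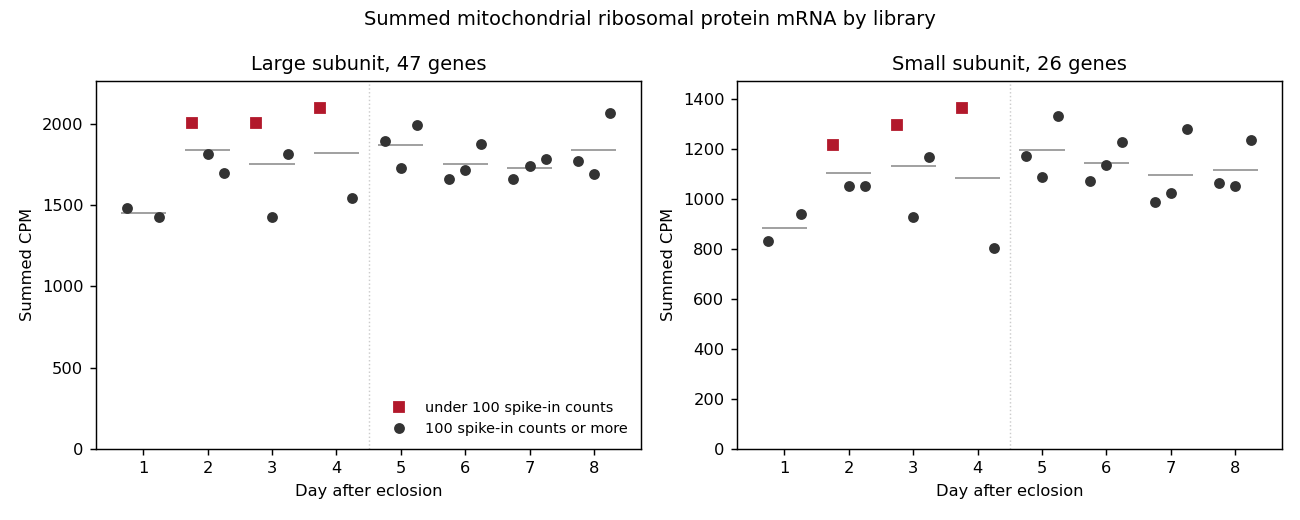
Summed CPM of the 47 large-subunit and the 26 small-subunit genes in each library by day after eclosion. Squares are the 3 libraries with under 100 spike-in counts, drawn left of the others of their day, points are the other 19 libraries, and bars are day means. The squares are the highest value of their day in both panels, and both day 1 libraries lie low.

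The first question was whether the genes changed with age within each age group. From day 1 to day 4 most estimates were positive but none passed the test. For day 4 over day 1, 60 of the 72 tested members had a positive log2 fold change, with a median of 0.34, against a median of 0.01 over all tested genes. By exon length, the members' median was 0.35 from 500 to 1000 bp (44 members), against 0.15 over all tested genes of that length. It was 0.26 against 0.14 from 1000 to 1500 bp (19 members) and -0.24 against -0.40 under 500 bp (6 members). From 1500 to 3000 bp it was 0.75 against 0.08 (3 members). These differences by class have no test. The edgeR quasi-likelihood test called 0 members at an adjusted p under 0.05, 14 had an unadjusted p under 0.05, and DESeq2 called 0. Over all tested genes 0.0125% were called higher and 0.0249% lower at the adjusted threshold. Counts at an unadjusted p, here and below, have no share of all tested genes at that threshold beside them and show no excess among members. mRpL19 had 51.5 and 67.0 CPM on day 4, against 36 and 30.8 CPM on day 1 (log2 0.85 ± 0.25, SE, edgeR adjusted p = 0.303). mRpL43 had 29.8 and 38.8 CPM on day 4, against 14.9 and 19.0 CPM on day 1 (log2 1.03 ± 0.36, adjusted p = 0.344). In both genes the days did not overlap, but each of these days holds only 2 libraries and both genes were named for their small p-values. How many of all tested genes lacked overlap between these days was not counted. mRpL55 went the other way, with 11.3 and 15.8 CPM on day 4 and 22.4 and 25.1 CPM on day 1 (log2 -0.77 ± 0.26, SE, edgeR adjusted p = 0.339).

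The members' median for day 4 over day 1 rested on single libraries. Leaving out each library in turn gave medians of 0.02 (without day 4 replicate 2) to 0.60 (without day 4 replicate 1), with 0 members called each time. One of the day 4 libraries is spike-poor and the other, replicate 1, is a spike-in library. Their members' sums, 3462 and 2349 CPM, stand on either side of the middle of the study. The sum of the 8 muscle markers was 1159 and 312 CPM in replicates 1 and 2 of day 4, against 1811 and 1784 CPM in those of day 1, with 1 called lower, and its part in the members' median was not tested. Among days 1 to 4 as 1 test, edgeR called 0 of 72 members for any difference (8 at an unadjusted p under 0.05, 0 by DESeq2), where 0.0249% of all tested genes were called. The smallest p-values belonged to mRpL21 (edgeR adjusted p = 0.406), mRpL23 (0.418) and mRpL19 (0.472). mRpL23 lines the exit of the peptide tunnel in bacterial ribosomes.

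From day 5 to day 8 no member passed the test. For any difference among these days edgeR called 0 of 72 (1 at an unadjusted p under 0.05, 0 by DESeq2), with 0.0125% of all tested genes called. For day 8 over day 5 the count was 0 (0 at an unadjusted p under 0.05, 0 by DESeq2), and 0.0% of all tested genes were called in either direction. The members' median log2 fold change was -0.03, with 26 positive, and that of all tested genes -0.01. The smallest p-value was that of mRpL11, a protein of the factor-binding stalk base, with 12.2, 11.4 and 14.2 CPM on day 8 and 21, 12.0 and 20.7 CPM on day 5 (log2 -0.51 ± 0.25, SE, edgeR adjusted p = 1). Its days overlapped. For the difference between the change over days 5 to 8 and that over days 1 to 4, edgeR called 0 members (13 at an unadjusted p under 0.05, 0 by DESeq2) and 0.0% of all tested genes in either direction, and the members' median was -0.35. A p that misses the threshold does not show that the levels were equal.

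The next question was whether the older group differed from the younger one. Over all libraries 2 members were called, and the members' median was close to 0. The mean of days 5 to 8 over that of days 1 to 4 had a median log2 fold change of 0.06 over members, 49 of 72 positive, and of -0.02 over all tested genes. edgeR called 2 members higher and 0 lower, where 4.06% of all tested genes were called higher and 4.76% lower. The share called among members was thus below that among all tested genes. mRpL55 (FBgn0038678; 3R, 19094394 to 19094905), a large-subunit protein specific to mitochondria, ranged from 19.0 to 34.7 CPM with a median of 25.1 CPM in days 5 to 8, and from 11.3 to 25.1 CPM with a median of 20.4 CPM in days 1 to 4. Its log2 fold change was 0.38 ± 0.11 (SE, edgeR adjusted p = 0.0302). mRpS30 (FBgn0030692; X, 15786047 to 15788288) ranged from 97.5 to 200.0 CPM with a median of 135 CPM in days 5 to 8, and from 65.2 to 147 CPM with a median of 106 CPM in days 1 to 4 (log2 0.44 ± 0.14, SE, edgeR adjusted p = 0.0454). In both genes the age groups overlapped over much of their range.

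Both calls were lost when single libraries were left out. The count was 0 when any 1 of these was left out: replicate 1 of day 1 or day 4, and replicate 3 of day 5 or day 8. It was 1 without each of 11 other libraries, and 6 without day 4 replicate 2. With every library thinned to the same depth, an alternative chosen after seeing the data, 0 members were called. Without the 3 spike-poor libraries 10 were called, all higher. Eggshell genes and markers of other cell types differed between these groups as well. Summed chorion mRNA was 3.77 to 32.7 CPM in days 5 to 8, 356 to 1018 CPM in spike-poor libraries and 107 to 1632 CPM in the other libraries of days 1 to 4. Summed vitelline membrane mRNA was 40.9 to 287, 572 to 646 and 258 to 1752 CPM in the same groups. All 8 muscle markers were called lower in the older group, with a median log2 fold change of -1.14 and a sum of 190.4 to 516 CPM in days 5 to 8, against 312 to 1811 CPM in days 1 to 4, where day 1 was highest. Of the 3 tested haemocyte markers 2 were lower (sum 93.5 to 144 CPM in days 5 to 8, 46.2 to 168 CPM in days 1 to 4). The third, srp, held most of that sum and was not called. Its mean was higher in days 5 to 8, 110 CPM against 84.5 CPM in days 1 to 4. Of the 6 follicle and somatic markers 2 were higher and 0 lower (sum 1195 to 1637 CPM in days 5 to 8, 697 to 1464 CPM in days 1 to 4). Of the 8 germline markers 1 was higher and 2 were lower (sum 4950 to 6531 CPM in days 5 to 8, 4624 to 5491 CPM in days 1 to 4). Rfabg, the fat body marker that could be tested, was not called. Their part in the result was not tested.

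**Figure D3:**
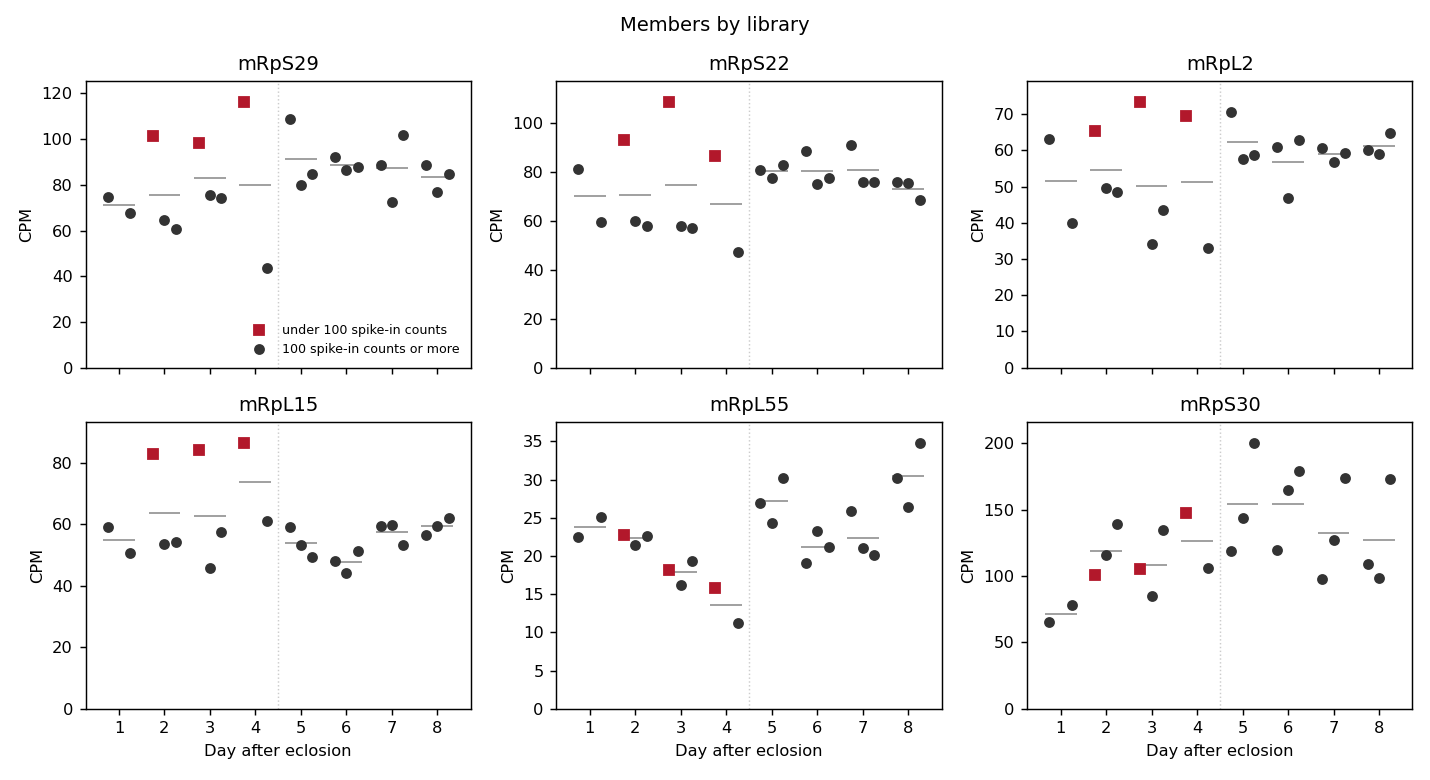
CPM of mRpS29, mRpS22, mRpL2, mRpL15, mRpL55 and mRpS30 in each library by day after eclosion. Squares are libraries with under 100 spike-in counts, points the other libraries, and bars day means. The squares of the first 4 genes lie above every other library of days 2 to 4, while those of mRpL55 and mRpS30 overlap the points of these days.

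The comparison of library kinds called more members than any of the other comparisons. Each day holds at most a single spike-poor library, so its SEs and adjusted p measure no spread among spike-poor libraries. Within days 2, 3 and 4, the days that hold both kinds, 69 of 72 members had higher estimates in the spike-poor libraries, with a median log2 fold change of 0.39, against 0.05 over all tested genes. edgeR called 14 members higher and 0 lower, with 8.4% of all tested genes called higher and 11.6% lower. Of 46 tested large-subunit genes 8 were called, and of 26 small-subunit genes 6. The medians were 0.34 for the large and 0.47 for the small subunit. In 19 members all 3 spike-poor libraries lay above all 5 spike-in libraries of days 2 to 4, and in 0 they lay below. Over all tested genes 10.7% lay above and 12.7% below without overlap.

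mRpS29 (FBgn0034727; 2R, 22418937 to 22420376), known in mammals as the GTP-binding protein DAP3, had 101, 98.3 and 116 CPM in the spike-poor libraries of days 2, 3 and 4. The spike-in libraries had 64.5 and 60.6 CPM on day 2, 75.7 and 74.4 CPM on day 3 and 43.4 CPM on day 4. Every spike-poor library lay above every other library of these days, and the log2 fold change was 0.83 ± 0.14 (SE, edgeR adjusted p = 0.000306). mRpS22 (FBgn0039555; 3R, 27916908 to 27918248), a small-subunit protein specific to mitochondria, had 93.3, 109 and 86.7 CPM in the spike-poor libraries and 60.3, 58.2, 57.9, 57.3 and 47.5 CPM in the spike-in libraries of days 2 to 4 (log2 0.81 ± 0.13, SE, edgeR adjusted p = 0.000218). Again the kinds did not overlap. mRpL2 (FBgn0036135; 3L, 11120847 to 11122041), whose bacterial counterpart is close to the site of peptide bond formation, had 65.4, 73.3 and 69.6 CPM in the spike-poor libraries, against 49.5, 48.5, 34.0, 43.5 and 33.0 CPM in the spike-in libraries (log2 0.79 ± 0.16, SE, edgeR adjusted p = 0.00165).

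mRpL49 (FBgn0030433; X, 12907105 to 12907942), another mitochondria-specific protein, had 45.9, 49.5 and 51.5 CPM in the spike-poor libraries. The spike-in libraries of days 2 to 4 had 24.3 to 30.6 CPM, and the log2 fold change was 0.79 ± 0.17 (SE, edgeR adjusted p = 0.00228). mRpL15 (FBgn0036990; 3L, 20435110 to 20436209) had 83.0, 84.2 and 86.4 CPM in the spike-poor libraries, against 46.0 to 61.1 CPM in the spike-in libraries of days 2 to 4 (log2 0.60 ± 0.13, SE, edgeR adjusted p = 0.00264). These 5 genes were called whichever of the 22 libraries was left out. Leaving out a spike-poor library, or day 4 replicate 1, drops its whole day from the comparison, which then rests on the other days. The count of called members was 5 without either day 4 library and 19 without day 3 replicate 3. With every library thinned to the same depth, an alternative chosen after seeing the data, mRpL2 and mRpL49 were not called. The other 9 members called at full depth were mRpS5, mRpS31, mRpS24, mRpS21, mRpL1, mRpL30, mRpL24, mRpL47 and mRpL33. Among the alternative settings, fits without a single library included, mRpL47 and mRpL33 lost their call in 21 and 20. mRpL1, mRpL24, mRpL30, mRpS21 and mRpS24 lost it in 14, 13, 12, 11 and 10, and mRpS5 and mRpS31 in 4 each. mRpS5 had the largest estimate, log2 1.00 ± 0.24 (SE, edgeR adjusted p = 0.00600), with 47, 39.5 and 39.3 CPM in spike-poor libraries and 12.1 to 42.9 CPM in the spike-in libraries of days 2 to 4, which overlap. The estimates of mRpL12 (log2 -0.28 ± 0.18, SE, edgeR adjusted p = 0.277), mRpL36 (-0.27 ± 0.24, 0.454) and mRpL52 (-0.07 ± 0.25, 0.890) were the 3 negative ones.

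**Figure D4:**
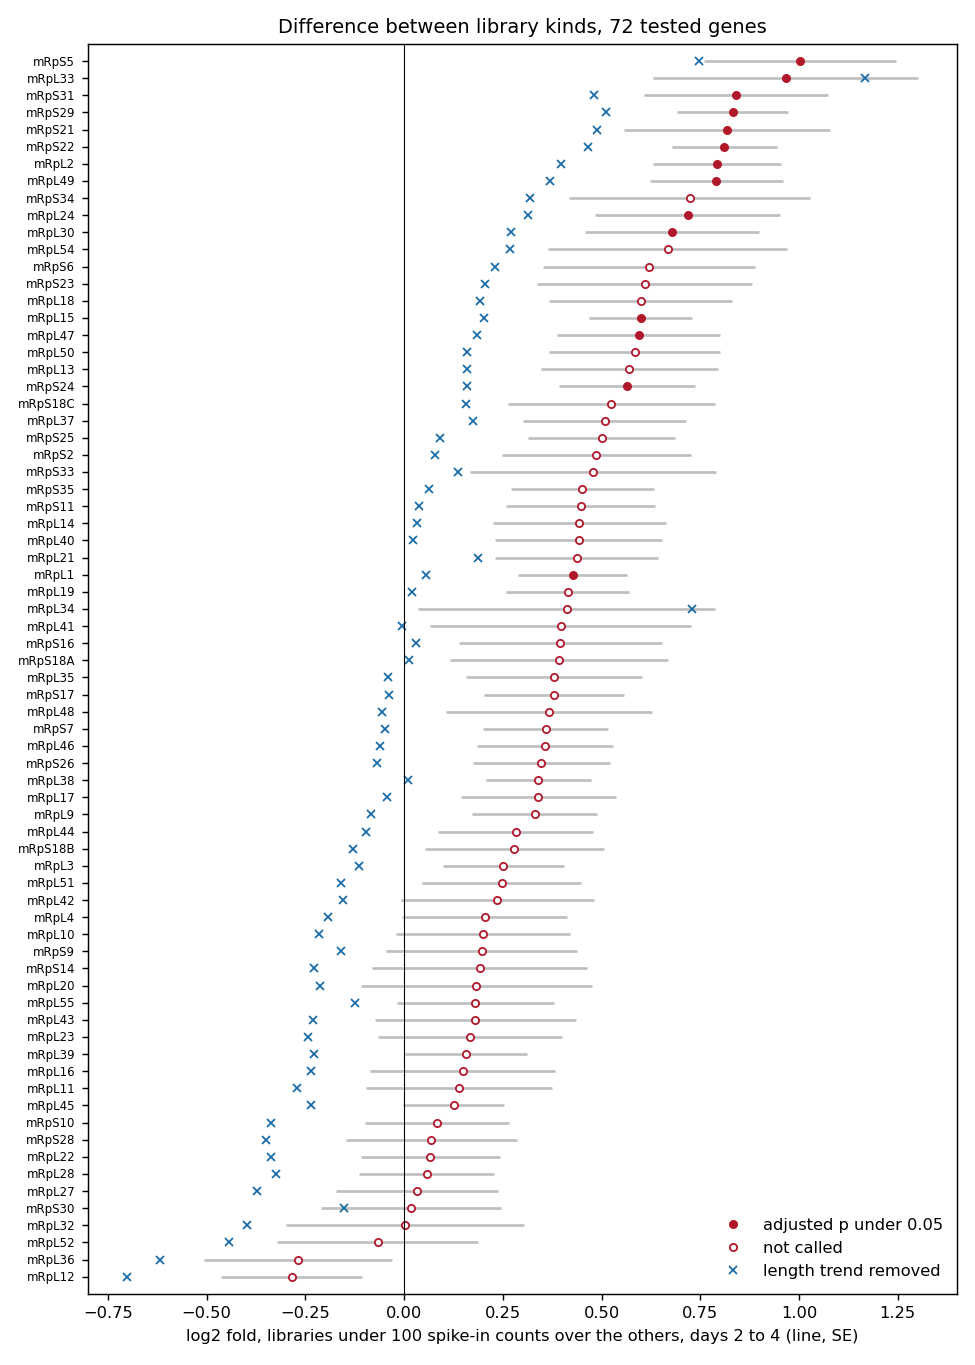
Log2 fold change of the 72 tested members between spike-poor libraries (under 100 spike-in counts) and the other libraries of days 2 to 4, with lines of 1 SE. Filled circles passed an adjusted p under 0.05, open circles did not, and crosses are the same estimates after a trend of each library with exon length was removed. Circles lie right of 0 for 69 genes with a median of 0.39, and crosses have a median of 0.00.

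The difference between the kinds of library followed gene length over the whole transcriptome. Over all 8024 tested genes the log2 fold change between the kinds correlated with exon length at -0.56 (Spearman, across genes, which are not independent replicates). Genes of 500 to 1000 bp had a median of 0.44 with 20.2% called higher (n = 928), and genes of 1000 to 1500 bp a median of 0.39 with 16.8% called higher (n = 1259). Genes over 3000 bp had a median of -0.35 with 0.716% called higher (n = 2793). The 44 members of 500 to 1000 bp had a median of 0.38 with 5 called, and the 19 of 1000 to 1500 bp a median of 0.34 with 6 called. The medians of members and of all genes were close in these classes, and they were not in the others. The 6 members under 500 bp had a median of 0.45 with 2 called, against -0.21 over all 226 tested genes of that length, of which 31.0% were called lower. The 3 members of 1500 to 3000 bp had a median of 0.44 with 1 called, against 0.15 over all genes of that length. These differences by class have no test. Within the 72 members the correlation with length was -0.03.

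**Figure D5:**
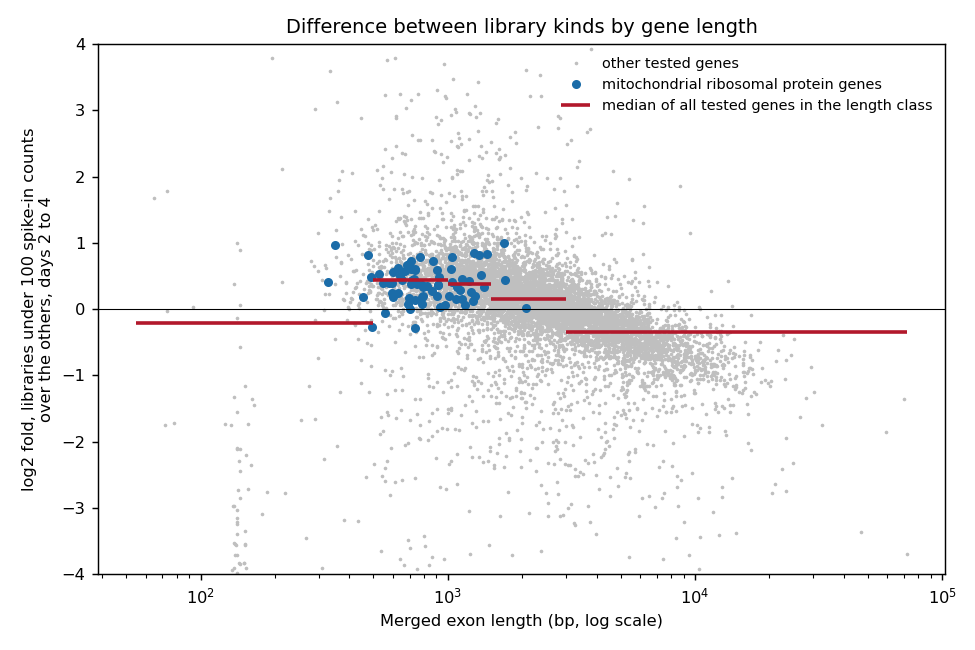
Log2 fold change between spike-poor and other libraries of days 2 to 4 against merged exon length on a log axis, for members (blue) and other tested genes (grey), with the median of each length class of all tested genes (red). The axis is limited to 4 in either direction, and 76 genes lie outside it. From 500 to 1500 bp the members lie around the red medians of 0.44 and 0.39. Under 500 bp the 6 members lie above the red median of -0.21, with a median of 0.45, and over 3000 bp the red median is -0.35.

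When the trend with exon length was removed from each library, an alternative chosen after seeing the data, the members' median between the kinds was 0.00 and 2 members were called. How many of all tested genes were called in that setting is not given here, so this count has no background. mRpS29 remained higher (log2 0.51, edgeR adjusted p = 0.0400), while mRpL12 was lower (log2 -0.70, adjusted p = 0.0213). mRpS22 and mRpL2 had log2 fold changes of 0.47 and 0.40 and adjusted p = 0.0642 and 0.184. mRpL12 was at 104, 91.0 and 119 CPM in the spike-poor libraries and at 130, 103, 96.2, 128 and 154 CPM in the spike-in libraries of days 2 to 4, so its CPM overlapped between the kinds. Removing the trend also removes any difference that short genes share for another reason. The day 4 libraries carried much of the count as well. Without both of them, also chosen after seeing the data, 5 members were called (mRpL2, mRpL15, mRpL49, mRpS22 and mRpS29) and the median was 0.24. Leaving out either day 4 library alone also drops day 4 from the comparison, so these fits are not separate checks.

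Markers of cell types moved with the kind of library too. All 6 follicle and somatic markers were called lower in the spike-poor libraries, and their sum was 697 to 840 CPM, against 1072 to 1464 CPM in the spike-in libraries of days 2 to 4. The sum of the 8 germline markers was 4624 to 5244 CPM in spike-poor against 5007 to 5458 CPM in spike-in libraries, with 3 lower and 0 higher. The sum of the 8 muscle markers was 312 to 443 CPM in spike-poor against 333 to 1159 CPM in spike-in libraries, with 3 lower. Of the 5 haemocyte markers, 1 of 3 tested was lower (sum 46.2 to 104 CPM in spike-poor against 74.0 to 161 CPM in spike-in libraries), and NimC1 and eater were at or near 0 throughout. Of the 4 fat body markers, only Rfabg could be tested and it was lower (sum 37.2 to 47.9 CPM in spike-poor against 51.4 to 146 CPM in spike-in libraries), with Lsp2, Fbp1 and Lsp1alpha at or near 0. Their part in the result was not tested.

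Set against each kind of young library in turn, the older group had members' medians of opposite sign. Days 5 to 8 against the 7 spike-in libraries of days 1 to 4 had 65 of 72 positive estimates, a median of 0.20 (0.03 over all tested genes), and 10 members called higher and 0 lower, with 6.89% of all tested genes called higher and 7.6% lower. Against the 3 spike-poor libraries the older group had 60 negative estimates, a median of -0.21 (-0.03 over all tested genes), and 0 members called higher and 3 lower, with 11.7% of all tested genes called higher and 6.97% lower. The comparisons share the 12 older libraries. Cell type markers moved in both. Against the spike-in libraries all 8 muscle markers were called lower (median -1.33; sum 190.4 to 516 CPM in days 5 to 8, 333 to 1811 CPM in the spike-in libraries), as were 2 of 3 haemocyte markers, and 1 of 6 follicle and somatic markers was higher. Against the spike-poor libraries all 6 follicle and somatic markers were called higher (median 0.88; sum 1195 to 1637 CPM in days 5 to 8, 697 to 840.1 CPM in the spike-poor libraries), while 1 of 8 muscle markers was lower and 1 of 3 haemocyte markers higher. Of the 8 germline markers, 1 was higher and 1 lower against the spike-in libraries, and 2 were higher and 1 lower against the spike-poor ones. Their part in either result was not tested. The young spike-in libraries hold fewer gene counts than any older library. With all libraries thinned to 1146915 gene counts, chosen after seeing the data, 5 members were called in the first comparison, all higher, and 2 higher and 2 lower in the second.

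Against the spike-in libraries, mRpS29 ranged from 72.4 to 109 CPM with a median of 87.0 CPM in days 5 to 8, and from 43.4 to 75.7 CPM with a median of 67.7 CPM in days 1 to 4 (log2 0.50 ± 0.10, SE, edgeR adjusted p = 0.00144). mRpS22 ranged from 68.5 to 91.3 CPM with a median of 76.9 CPM in days 5 to 8, and from 47.5 to 81.5 CPM with a median of 58.2 CPM in days 1 to 4 (log2 0.44 ± 0.09, adjusted p = 0.00272 with edgeR). Its high young value, 81.5 CPM, was that of day 1 replicate 1. mRpL2 (log2 0.49 ± 0.11, edgeR adjusted p = 0.00573) and mRpL49 (0.50 ± 0.12, 0.00720) followed, and these 4 were called whichever library was left out. The count was 5 without day 4 replicate 1 and 6 without day 2 replicate 3. The other 6 were mRpS24, mRpL1, mRpS18C, mRpL55, mRpS16 and mRpS30. With all libraries thinned to the same depth, mRpS29 and mRpS22 were still called, while mRpL2 and mRpL49 were not. Without both day 4 libraries 4 were called, and with the length trend removed 5 were called, mRpL2, mRpL34, mRpS18C, mRpS22 and mRpS29, with a median of 0.08. By length, the members' median was 0.20 from 500 to 1000 bp (44 members), equal to that of all tested genes. It was above that of all genes in the other classes, with 0.19 against -0.55 under 500 bp (6 members), 0.23 against 0.12 from 1000 to 1500 bp (19 members) and 0.34 against 0.07 from 1500 to 3000 bp (3 members). These differences by class have no test.

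Against the spike-poor libraries, mRpL15 ranged from 44.2 to 62.1 CPM with a median of 54.9 CPM in days 5 to 8 and had 83.0, 84.2 and 86.4 CPM in the spike-poor libraries, with no overlap (log2 -0.63 ± 0.10, SE, edgeR adjusted p = 0.000290). mRpS5 ranged from 17.0 to 31.9 CPM with a median of 23.8 CPM in days 5 to 8, against 47, 39.5 and 39.3 CPM in the spike-poor libraries, again with no overlap (log2 -0.78 ± 0.18, adjusted p = 0.00463 with edgeR). Both genes were named for their small p-values, and how many of all tested genes lacked overlap here was not counted. mRpS25 (log2 -0.43 ± 0.15, edgeR adjusted p = 0.0456) was the third, and its call was lost without each of the 3 spike-poor libraries in turn, among others. With the length trend removed the calls were mRpL15 and mRpS5 lower and mRpL55 higher, with a members' median of 0.05. mRpL55 was thus higher in the older group in that setting (log2 0.62, edgeR adjusted p = 0.0132), with 22.7, 18.2 and 15.8 CPM in the spike-poor libraries beside the older values given above.

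Other genes of mitochondrial gene expression were set beside the members. The mitochondrial ribosomal proteins tko and bonsai, the counterparts of bacterial S12 and S15, have other symbols and stand outside the rule. In the spike-poor against the spike-in libraries of days 2 to 4, bonsai was higher (log2 0.53 ± 0.18, SE, edgeR adjusted p = 0.0460) and tko had log2 0.42 ± 0.22 (adjusted p = 0.202). Of 10 tested genes for replication and transcription of mitochondrial DNA, 2 were called higher and 0 lower: mTTF, a termination factor (log2 1.22 ± 0.32, adjusted p = 0.00996 with edgeR), and mtSSB, which binds single-stranded mitochondrial DNA (0.56 ± 0.18, 0.0307). The 5 tested genes for processing of mitochondrial RNA had a median of 0.10, and the smallest edgeR adjusted p among them was 0.241, for scu. The mitochondrial elongation factor G gene ico, the 1 translation factor matched, had log2 0.27 ± 0.15 (edgeR adjusted p = 0.229). Of 61 tested nuclear genes of oxidative phosphorylation, 18 were called higher and 0 lower (median 0.28). Of 12 tested mRNAs of the mitochondrial genome, 7 were higher and 0 lower (median 1.10), led by mt:CoIII (log2 1.98 ± 0.19, edgeR adjusted p = 7.16e-07). Of 85 tested cytosolic ribosomal protein genes 68 were higher and 0 lower (median 0.51). These shares stand beside 14 of 72 for the members and 8.4% of all tested genes. Among all tested genes, 20.2% of those of 500 to 1000 bp and 16.8% of those of 1000 to 1500 bp were called higher. The lists were not matched for gene length, here or in the next comparison.

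For days 5 to 8 against the spike-in libraries of days 1 to 4 the same lists had 0 of 2, 2 of 10 (TFAM and mtSSB), 0 of 5, 28 of 61, 5 of 12 and 77 of 85 genes called higher, and 0 lower in each. The median log2 fold changes were 0.35, 0.24, 0.25, 0.27, 0.55 and 0.47, beside 0.20 for the members. The translation factor ico, not counted in these lists, had log2 -0.007 and was not called. Across all 22 libraries the members' summed CPM stayed within 2315 to 3462, while summed mRNA of the mitochondrial genome ran from 2551 to 7554 CPM in days 5 to 8, 4356 to 8668 CPM in spike-poor libraries and 1733 to 3190 CPM in the spike-in libraries of days 1 to 4.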

How the data were processed

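Per the labels' protocols, polyA RNA of 22 anterior ovariole samples was sequenced after addition of ERCC spike-in RNA. The authors deposited whole-number read counts for each annotated feature, without normalization. Tools named in the submitters' processing notes include HTSeq 0.6.1p1, HISAT2 2.0.1, CASAVA 1.8.2 and SAMtools 0.1.2. The series table equals the sample files. Each file lists 19146 features, of which 1572 transposon insertions and 96 spike-in transcripts stayed out of library sizes and tests. Insertions held 1.46 to 4.11% of all counts of a library.

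Counts were analysed with edgeR 4.0.16 in R 4.3.3 (TMM, quasi-likelihood F-tests, default filter with minimum count 10, Benjamini-Hochberg adjustment over all 8024 tested genes, threshold 0.05). Comparisons of days used a coefficient per day over all 22 libraries (14 residual degrees of freedom, common biological coefficient of variation 23.2%). Comparisons by library kind used a coefficient per combination of day and kind (11 and 18.9%), where kind is under 100 spike-in counts or not. DESeq2 1.42.0 was an alternative. CPM use TMM library sizes, and exon lengths come from the deposited annotation. The edgeR fits were tested on simulated data. In the fit by day and kind, each spike-poor library is the only 1 of its kind on its day. The spread behind the SEs and adjusted p of that fit therefore comes from spike-in libraries alone. On day 4, where each kind has 1 library, neither adds to it.

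The members, the marker and pathway lists and most comparisons were chosen with earlier results of these data known. Named members were the 5 highest and 5 lowest per kb, the 3 smallest p-values per comparison and direction, the 4 largest and 4 smallest SDs, paralog families and members that fail the filter. Other members called in a comparison were listed after their values were seen. Nothing states that samples with the same replicate number are related, so numbers were not used as pairs. Samples are labelled as biological replicates. Promoter motifs, planned at the start, were not analysed here. The floor of 3 counts covers counting error only. Values after ± are SDs over libraries or SEs of the edgeR fits, which include variation between libraries.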

Additional observations from a re-analysis of the deposited data

How the results depend on the processing

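The counts of called members depended on single libraries. Counts in alternative settings, here and above, are given without the share of all tested genes called in the same setting. In the comparisons by library kind, leaving out the only library of its kind on a day drops that day for that kind. Between the kinds, that day then drops out wholly. Leaving out each of the 22 libraries in turn gave 5 (without day 4 replicate 1, or replicate 2) to 19 (without day 3 replicate 3) called between the library kinds, where all libraries gave 14. It was 7, 8 and 9 without day 3 replicate 2, day 3 replicate 1 and day 2 replicate 1. For days 5 to 8 against the spike-in libraries of days 1 to 4 it gave 5 (without day 4 replicate 1) to 15 (without day 3 replicate 3) where all gave 10, and 6 without day 2 replicate 3. Against the spike-poor libraries it gave 2 to 5 (5 without replicate 1 or 3 of day 3) where all gave 3. For the age groups over all libraries, where all gave 2, it gave 0 to 6. For the other 5 comparisons it gave 0 each time. The estimate of mRpS28 for day 4 over day 1 ran from -0.51 to 0.053 and changed sign without day 1 replicate 2, a fit that takes the spread of the remaining day 1 library from the other days.

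Between the library kinds, 9 were called with DESeq2 size factors, 8 with DESeq2, 8 when only days 1 to 4 were fitted and 9 in an additive fit of day and kind. Chosen after seeing the data, the count was 5 without both day 4 libraries, 7 after thinning and 2 (1 higher, 1 lower) with the length trend removed, and the counts against the spike-in libraries were 4, 5 and 5. For the age groups over all libraries the count was 10 without the spike-poor libraries, 9 with kind as a term, 0 after thinning and 4 with the length trend removed. Without a filter on low counts, 1 member, mRpS30, was called lower in the difference of changes. Why the counts moved was not tested beyond the length and depth values given above.

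With the replicate number as a block, 10 members were called lower in days 5 to 8 against the spike-poor libraries, and 21 higher between the kinds. Of the 71 pairs of libraries with the same number in different days, over all 8 days, 25 had deviations correlated above 0.1 (range -0.51 to 0.39). The numbers were not used to pair the samples, since the labels do not tie them to a shared source and not every pair passed 0.1. That 15 of 22 libraries correlated best with a library of their own number is a hint from the data, not the design, that numbers may mark something shared. The lowest depth, 1146915 gene counts, gave 2771 counts over the 73 members.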
